A study of Homo sapiens with 2 samples.

Results

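Genes for the protein factors that start and extend translation were examined for HA-RFX6 peaks in MHCC-97H, a line of human hepatocellular carcinoma (HCC) cells. The members were the protein-coding genes whose symbol starts with EIF or EEF, together with PAIP1, PAIP2, PAIP2B, PABPC1 and PABPC4, and this rule took 76 of the 20037 protein-coding genes in a RefSeq gene table (GRCh38.p14). The cells overexpressed RFX6 with an HA tag, a short peptide recognised by an antibody, and chromatin was precipitated with anti-HA antibody after formaldehyde fixation (ChIP-seq). The series holds 1 ChIP library of these cells and 1 input library of MHCC-97H chromatin. Only the peak list of the ChIP library was used, so there are no replicates, no value has a replicate error, and no test between conditions was possible. Each peak is given as an interval with a whole-number score of the authors whose definition is not stated, and the read depth is unknown. HA-tagged RFX6 was expressed from a plasmid, and the list therefore describes the tagged, overexpressed protein.

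Translation begins when the initiator tRNA, carried by eIF2, joins the small ribosomal subunit, and the subunit is brought to the capped end of an mRNA by the eIF4 factors and eIF3. eIF2 works as a GTP switch that is recharged by eIF2B and is blocked when one of several kinases phosphorylates its alpha subunit, which is the core of the integrated stress response. Elongation factors then deliver tRNAs to the ribosome and move it along the mRNA, and poly(A)-binding proteins link the tail of the mRNA to the cap. Tumour cells often raise their rate of translation, and several of these factors respond to mTOR and MYC signalling. RFX6 is a transcription factor of the RFX family, best known from the development of the endocrine pancreas. RFX proteins bind the X-box, whose half-site contains the letters GTTGCC.

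To show part of the DNA beneath the intervals, stretches upstream of the start site that an interval covered are given for 7 members, taken from the RefSeq promoter sequences (GRCh38.p14). They include the member with the highest score (PAIP1), the kinase that brakes elongation (EEF2K), and genes of start codon selection (EIF5), cap-dependent initiation (EIF4B, EIF4H), its repression (EIF4EBP2) and the recharging of eIF2 (EIF2B4). Each is written on the strand of the gene. Capitals mark matches, on either strand, to a set of short motifs, namely the GC box (GGGCGG, or CCGCCC on the other strand), the CCAAT box (CCAAT or ATTGG), the E-box (CACGTG), an ETS core (CCGGAAG), NRF1 (CGCATGCG), YY1 (AAGATGGCG), TCGCGAGA and the RFX half-sites GTTGCC, GTTGCCAT and GTTACC. The stretches are PAIP1 at chr5:43557412-43557539 (minus strand), EEF2K at chr16:22206028-22206199 (plus), EIF5 at chr14:103333987-103334236 (plus), EIF4B at chr12:53006206-53006455 (plus), EIF4H at chr7:74174106-74174204 (plus), EIF4EBP2 at chr10:70403960-70404144 (plus) and EIF2B4 at chr2:27370339-27370451 (minus).
PAIP1: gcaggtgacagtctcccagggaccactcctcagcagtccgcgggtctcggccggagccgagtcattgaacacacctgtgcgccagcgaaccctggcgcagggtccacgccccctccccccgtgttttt
EEF2K: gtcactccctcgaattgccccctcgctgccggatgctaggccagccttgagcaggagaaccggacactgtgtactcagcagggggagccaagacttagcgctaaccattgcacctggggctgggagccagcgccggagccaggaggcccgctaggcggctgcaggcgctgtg
EIF5: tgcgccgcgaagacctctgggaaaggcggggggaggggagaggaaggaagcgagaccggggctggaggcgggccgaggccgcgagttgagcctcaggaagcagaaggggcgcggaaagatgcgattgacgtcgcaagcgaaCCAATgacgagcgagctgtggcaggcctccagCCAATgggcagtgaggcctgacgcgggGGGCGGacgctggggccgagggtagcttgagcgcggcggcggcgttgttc
EIF4B: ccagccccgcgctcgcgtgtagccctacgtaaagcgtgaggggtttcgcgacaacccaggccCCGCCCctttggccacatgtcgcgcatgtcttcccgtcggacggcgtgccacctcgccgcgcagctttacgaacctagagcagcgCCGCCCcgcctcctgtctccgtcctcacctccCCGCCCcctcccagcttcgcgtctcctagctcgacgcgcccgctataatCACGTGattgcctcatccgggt
EIF4H: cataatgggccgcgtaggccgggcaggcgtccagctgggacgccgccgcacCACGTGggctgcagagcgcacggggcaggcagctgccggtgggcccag
EIF4EBP2: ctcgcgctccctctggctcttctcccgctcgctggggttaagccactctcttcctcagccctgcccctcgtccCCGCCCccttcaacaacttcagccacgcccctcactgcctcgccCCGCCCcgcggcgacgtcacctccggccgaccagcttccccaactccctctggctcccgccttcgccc
EIF2B4: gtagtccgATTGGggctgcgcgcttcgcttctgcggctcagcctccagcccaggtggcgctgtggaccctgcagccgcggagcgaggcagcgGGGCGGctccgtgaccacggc
None of these motifs was found in the PAIP1 and EEF2K stretches, whereas EIF5 held 2 CCAAT boxes and a GC box, EIF4B held 3 GC boxes and an E-box, and EIF4H held an E-box. The EIF4EBP2 stretch held 2 GC boxes, and that of EIF2B4 held a CCAAT box and a GC box. An RFX half-site was seen in none of the 7 stretches. An ETS core was in none of the 7 either, but covered stretches not printed here, those of EIF4E2, EIF2A, EIF3M and EIF2B1, held one. Each stretch holds only the part of its interval that lies within 250 bases upstream of the start site. For EEF2K this was 172 of 200 bp, but for PAIP1 it was 128 of 838 bp. The midpoint of the PAIP1 interval lay 291 bp downstream of the start, outside the stretch. A match, or its lack, describes these letters in these stretches only, not the whole interval.

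An interval had its midpoint within 1 kb of a gene end for 26 of the 76 members (34.2%, 95% Wilson interval 24.5% to 45.4%). In the whole table, 3100 of 20037 protein-coding genes had one, which was 15.5%. When the gene body was added, 28 members had an interval (36.8%), compared with 3913 of all protein-coding genes (19.5%). The Wilson interval covers the counting of genes only, and genes are not replicates. The share varied among the branches of translation. Members with the prefix EIF2 had an interval at an end in 8 of 15 cases and those with the prefix EIF4 in 8 of 16. For the prefix EEF the number was 4 of 15, and for EIF3 it was 2 of 14, close to the 15.5% of all genes. These branches hold few genes, and the differences between them were not tested.

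**Figure D1:**
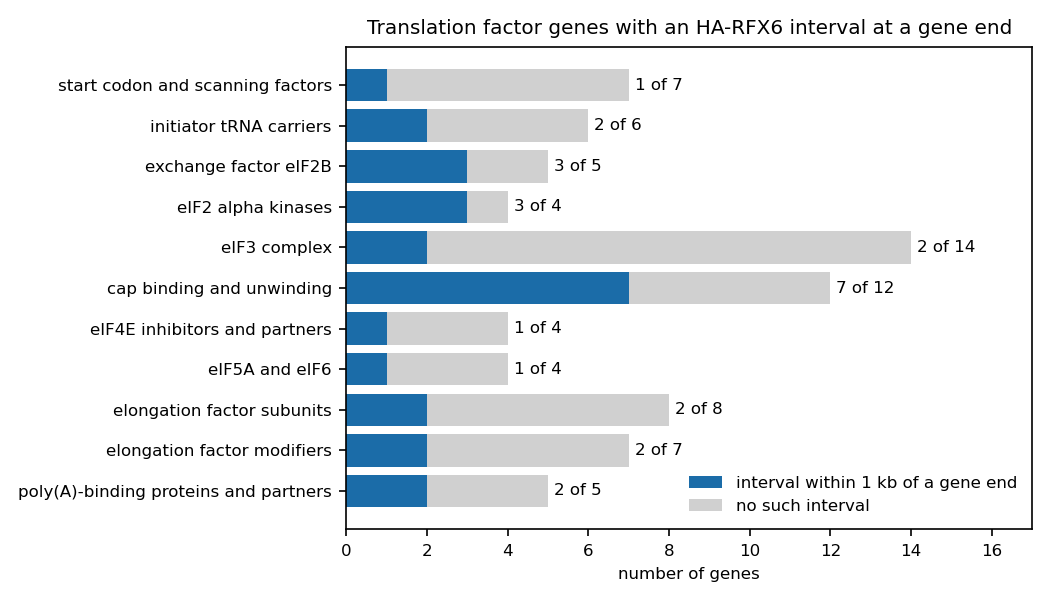
Number of translation factor genes (horizontal axis) by role (vertical axis), split into genes with an HA-RFX6 interval within 1 kb of an end and genes without one. The cap-binding and unwinding group had 7 of 12, the eIF2 alpha kinases 3 of 4 and eIF2B 3 of 5, whereas the eIF3 complex had 2 of 14. Over all protein-coding genes the share was 15.5%.

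The branch of eIF2 was examined first. Of the 4 kinases that phosphorylate eIF2 alpha, 3 had an interval at a gene end. At EIF2AK3 (PERK, which senses unfolded protein in the endoplasmic reticulum), the interval chr2:88627831-88628179 had a score of 45 and spanned the high-coordinate end of the gene, upstream of the listed start site and beside the divergent transcript EIF2AK3-DT. At EIF2AK1 (HRI, the haem-regulated kinase), the interval chr7:6058960-6059225 had a score of 46 and spanned the high-coordinate end. At EIF2AK4 (GCN2, which senses uncharged tRNA), the interval chr15:39934093-39934323 had a score of 39 and spanned the start site. The median score of all intervals was 30, so each of the 3 kinase intervals lay above it. No interval was at EIF2AK2 (PKR, activated by double-stranded RNA), for which the nearest midpoint was 132301 bp from a gene end.

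The exchange factor eIF2B, which recharges eIF2 with GTP, had intervals at 3 of its 5 subunit genes. At EIF2B1 (alpha subunit), the interval chr12:123633595-123633916 had a score of 31 and spanned the start site. Its midpoint was 74 bp from an end of the neighbouring gene GTF2H3. At EIF2B4 (delta subunit) there were 2 intervals, chr2:27370211-27370451 across the start site with a score of 28, and chr2:27370568-27370769 with a score of 32. The latter had its midpoint 330 bp upstream of EIF2B4, inside the neighbouring gene SNX17. At EIF2B5 (the catalytic epsilon subunit), the interval chr3:184135476-184135755 had a score of 25 and began 118 bp downstream of the start site. The non-coding gene EIF2B5-DT was within 1 kb of it. The scores at eIF2B genes were thus near or below the median of 32 over the intervals at ends of all protein-coding genes. EIF2B2 and EIF2B3 had no interval.

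Of the eIF2 subunits, only EIF2S2 (beta) had an interval, chr20:34112195-34112394, with a score of 50 and spanning the high-coordinate end. EIF2S1 (alpha, the kinase substrate), EIF2S3 (gamma) and its relative EIF2S3B had none. EIF2A, an alternative carrier of initiator tRNA that is not a part of eIF2, had the interval chr3:150546296-150546774. It was listed on 4 lines with scores from 20 to 29 and ended 13 bp upstream of the start of EIF2A, and its midpoint was 39 bp from an end of SERP1. EIF2D, another alternative carrier, had no interval.

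The cap-binding and unwinding genes, grouped by symbol, were the group with the most members at an interval, 7 of 12. At EIF4E (the cap-binding protein), the interval chr4:98928250-98929078 was 829 bp wide and lay inside the gene from 55 bp downstream of the start. It was listed on 6 lines, the most of any member, with scores from 27 to 34. At its scaffold EIF4G1, the interval chr3:184314783-184315253 had a score of only 17, and at the second scaffold EIF4G3 the interval chr1:21176711-21176916 had a score of 27 and spanned the outermost start site. The cofactors of the RNA helicase eIF4A had higher scores. At EIF4B, the interval chr12:53006105-53006639 covered the whole printed stretch and had scores of 46 and 39 on its 2 lines, and at EIF4H the interval chr7:74173902-74174204 had a score of 37 and lay entirely upstream of the start. The genes with the prefix EIF4A, namely EIF4A1, EIF4A2 and EIF4A3, had no interval, and neither did EIF4G2 nor EIF4E3.

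The other cap-binding relatives were each beside another gene. At EIF4E2 (4EHP, a repressive cap-binding protein), the interval chr2:232550482-232550748, with a score of 27 on each of 3 lines, spanned the start site and was 58 bp from an end of TIGD1. At EIF4E1B (a germ cell relative of eIF4E), the interval chr5:176646966-176647703 had a score of 56 but lay beyond the far end of the gene, with its midpoint 150 bp from an end of TSPAN17. A second interval, chr5:176645015-176645288 with a score of 28, was in the body of EIF4E1B. Of the eIF4E inhibitors and partners, EIF4EBP2 (4E-BP, a target of mTOR) had the interval chr10:70403960-70404355 with a score of 52, centred 12 bp downstream of the start site. EIF4EBP1, EIF4EBP3 and EIF4ENIF1 had none.

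The eIF3 complex, which bridges mRNA and the small ribosomal subunit, had an interval at 2 of its 14 genes, EIF3M and EIF3H. At EIF3M, the interval chr11:32583745-32584000 had a score of 39 and spanned the start site. At EIF3H, the interval chr8:116766339-116766705 had a score of 27, spanned the high-coordinate end and had its midpoint 2 bp from an end of UTP23. For the remaining 12 genes (EIF3A, EIF3B, EIF3C, EIF3CL, EIF3D, EIF3E, EIF3F, EIF3G, EIF3I, EIF3J, EIF3K and EIF3L), the nearest was at EIF3I, 4333 bp from an end. EIF3C and EIF3CL are near-identical copies, and EIF5AL1 is a copy of EIF5A that differs from it in gene length (3908 against 5465 bp). How reads that map to several places were treated is not stated, so the lack of an interval at such copies is uncertain.

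Among factors that select the start codon or join the subunits, EIF5 (the GTPase-activating protein of eIF2) had the interval chr14:103333782-103334464 across the start site, with scores of 59 and 53. The non-coding gene EIF5-DT was within 1 kb of it. EIF1, EIF1B, EIF1AX, EIF1AY and EIF5B had none. EIF1AD, which is named for an eIF1A-like domain, had an interval in the gene body alone, chr11:65998027-65999114, with a score of 39. EIF5A, which relieves stalled ribosomes and carries the modified amino acid hypusine, had the interval chr17:7307642-7307884 with a score of 58. Its midpoint was 764 bp downstream of the outermost start, the longest such distance among member intervals within 1 kb of a start, and 135 bp from the nearest of the other listed starts. EIF5A2, EIF5AL1 and EIF6 had none.

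In elongation, the highly abundant core factors EEF1A1, EEF1B2, EEF1G and EEF2 had no interval at an end or in the body. EEF1E1 and EEFSEC, grouped with them by symbol, had none either. The nearest midpoint was 5192 bp from an end of EEF2 and 133087 bp from an end of EEF1A1. EEF1D (a subunit of the exchange factor of eEF1A) had 3 intervals. Those at its high-coordinate end, chr8:143597227-143597664 and chr8:143597876-143598450, had scores of 67 and 66, and both were within 1 kb of an end of TIGD5. The latter had its midpoint inside TIGD5, 332 bp from an end of that gene and 748 bp from the end of EEF1D. The third, chr8:143593962-143594311, lay in the body with a score of 32. At EEF1A2, the tissue-restricted relative of EEF1A1, the interval chr20:63498722-63498967 had a score of 17, the lowest among intervals at member ends together with that of EIF4G1.

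Of the enzymes that modify elongation factors, EEF2K (the kinase that inhibits eEF2) had the interval chr16:22206000-22206199. It was 200 bp wide, scored 61 and lay upstream of the start. EEF1AKMT3 (a lysine methyltransferase of eEF1A) had the interval chr12:57771882-57772457 with scores of 56 and 52, whose midpoint was 64 bp from an end of METTL1. The read-through gene EEF1AKMT4-ECE2 had 2 intervals in its body, chr3:184261660-184262239 with a score of 56, near an end of CAMK2N2, and chr3:184291614-184291853 with a score of 14, inside ECE2. EEF1AKMT4 alone had none, nor had EEF1AKMT1, EEF1AKMT2 and EEF2KMT.

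The highest scores of all members were at the poly(A) end of the pathway. At PAIP1 (which couples poly(A)-binding protein to eIF4A and stimulates initiation), the interval chr5:43556702-43557539 was the widest at a member end, at 838 bp. It spanned the outermost start site, was listed with scores of 106 and 62, and ranked 5 of 5019 by score. At PABPC1 (the major cytoplasmic poly(A)-binding protein), the interval chr8:100722225-100722708 scored 71, ranked 128 and lay 137 bp beyond the high-coordinate end. The inhibitors PAIP2 and PAIP2B, and PABPC4, had no interval.

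The scores of the member intervals were then compared with those at other genes. The 28 intervals at member ends had a median score of 42, with a range from 17 to 106, whereas the 3054 intervals at ends of all protein-coding genes had a median of 32, with a range from 13 to 126. A score of at least 30 was reached by 20 of the 28 intervals (71.4%), compared with 1744 of 3054 (57.1%) at all genes. By rank, 9 of the 28 intervals (32.1%) were among the 520 intervals with the highest scores in the list, compared with 391 of 3054 (12.8%) at all genes. Those at EEF1D, EIF4E1B and EEF1AKMT3 among them also had an end of another protein-coding gene within 1 kb. The median width was 335.5 bp at members and 282 bp at all genes. Each interval carries the highest score of its lines. More than 1 line was present for 9 of the 28 member intervals (32.1%), compared with 681 of 3054 (22.3%) at all genes. How far this raised the member scores was not tested. These are descriptions of 1 list, and the differences were not tested.

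**Figure D2:**
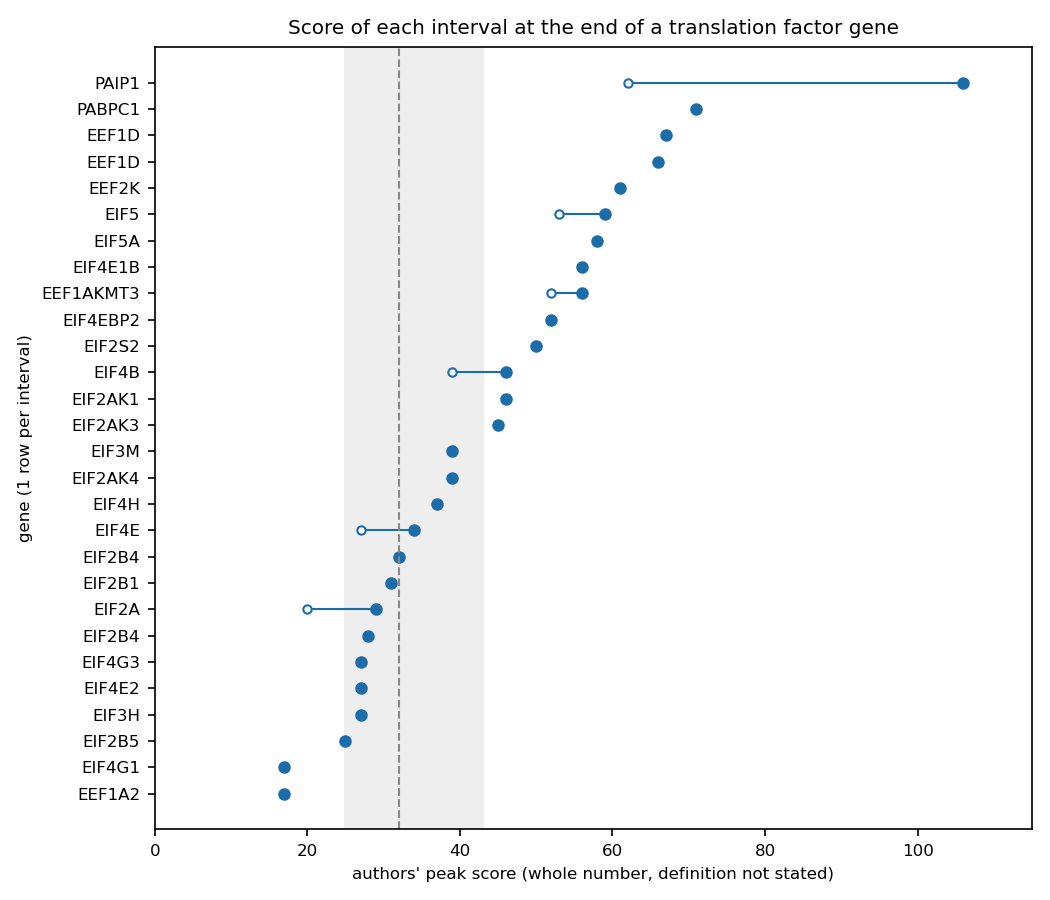
Authors' peak score (horizontal axis, no unit) of each of the 28 intervals at an end of a translation factor gene (vertical axis). Filled points are the highest score of an interval, open points the lowest score where its lines differed, and the grey band with the dashed line gives the quartiles (25 and 43) and the median (32) over all protein-coding gene ends. PAIP1 stands apart at 106, and EIF4G1 and EEF1A2 are lowest at 17.

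To see which end of the genes was concerned, start sites from the promoter table were used, which held 60 of the 76 members. An interval was within 1 kb of the outermost start for 18 of the 60, compared with 2436 of 15843 protein-coding genes (15.4%). Of the 19 members in that table with an interval at either end, 18 had it at the start and 1, EIF4E1B, at the far end only. Over all protein-coding genes the numbers were 2326 and 124 of 2519, a like proportion. The 2326 are only those of the 2436 that also had an interval at a gene end, and some of the 2519 were in neither count. The 19 interval midpoints around starts ranged from 541 bp upstream (EIF2AK3) to 764 bp downstream (EIF5A), with a median of 7 bp downstream. The median over all genes was 68 bp downstream. The start site lay within the interval in 10 of 19 cases (52.6%), compared with 38.2% for all genes.

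**Figure D3:**
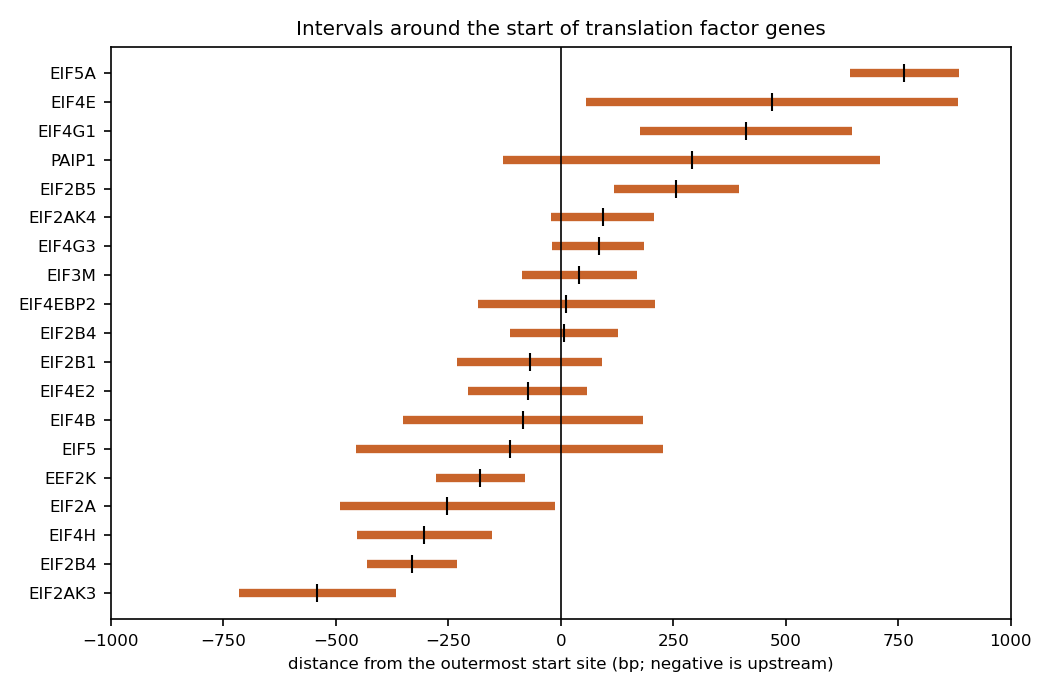
Extent of the 19 intervals (bars) and their midpoints (ticks) relative to the outermost start site of 18 translation factor genes, in bp on the horizontal axis with upstream as negative. The start lies within 10 of the 19 bars, with EIF2AK3 farthest upstream and EIF5A farthest downstream.

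Several member intervals could not be assigned to the member alone. Of the 28 intervals, 10 (35.7%, Wilson interval 20.7% to 54.2%) also had an end of another protein-coding gene within 1 kb, compared with 553 of 3054 (18.1%) at all genes. They concerned 8 members, namely EIF2A, EIF2B1, EIF2B4, EIF3H, EIF4E1B, EIF4E2, EEF1AKMT3 and EEF1D. Among members with no other gene end within 1 kb of their own ends, 15 of 46 (32.6%) had an interval, compared with 12.8% of such genes in the whole table. Among members with a close neighbour, the number was 11 of 30 (36.7%), compared with 22.3%.

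Members close to the limit of 1 kb were also listed. Just inside it were EIF5A (764 bp from the nearer gene end to the midpoint), EEF1D (748 bp for its outer interval) and EIF4E1B (690 bp). Just outside were EEF1AKMT4-ECE2 (1298 bp), EIF1AD (2025 bp), EIF4ENIF1 (3056 bp) and EEF1AKMT4 (3190 bp). Of the 47 members without an interval on chromosomes that carry any, 25 were more than 100 kb from the nearest interval midpoint, compared with 10386 of 16061 such protein-coding genes. Since read numbers are not known, weak enrichment or few reads at these genes could have been missed.

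The promoter sequences were searched for the motifs given above, in windows from 250 bases before to 50 after the outermost start. The windows were not cut to the intervals, so a match in a window can lie outside the interval. At EIF2AK3, EIF2B5, EIF4E, EIF4G1 and EIF5A, the interval within 1 kb of the start lay wholly outside the window. The half-site GTTGCC was in 1 of the 18 member windows with an interval at the start (EIF3M) and in 12 of the 42 without, compared with 12.6% of 15843 windows of protein-coding genes and 12.3% of the 2436 among them with an interval at the start. Its longer form GTTGCCAT was in none of the 18, in 1 of the 42 (EIF3I) and in 1.26% of all windows (0.78% of those with an interval), and GTTACC was in none of the 18, in 1 of the 42 and in 5.88% of all (4.84%). The ETS core CCGGAAG was in 6 of 18 and 10 of 42, against 14.2% of all windows and 21.1% of the 2436 windows with an interval at the start. The E-box CACGTG was in 5 of 18 (EIF4B, EIF4E, EIF4G1, EIF4H and EEF2K) and 12 of 42, against 8.82% and 11.4%. The GC box was in 13 of 18 (72.2%) and 34 of 42, against 58.3% of all windows and 79.2% of those with an interval. CCAAT was in 7 and 17 (36.4% and 37.1%), AAGATGGCG in 2 and 1 (2.69% and 4.23%), CGCATGCG in 1 and 1 (2.89% and 4.52%) and TCGCGAGA in 0 of the 60 (1.75% and 2.18%). ETS cores and E-boxes were thus found in windows of members both with and without an interval at the start. GTTGCCAT contains GTTGCC, and such matches were counted under both.

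Finally, other genes of translation were counted from lists. Of 15 genes that control initiation, 5 had an interval at an end (33.3%), namely MKNK2 (a kinase of eIF4E, score 57), ABCF1 (53), IMPACT (an inhibitor of GCN2 activation, 39), DDX3X (an RNA helicase, 27) and MKNK1 (17). ATF4, PPP1R15A, PPP1R15B and GCN1, further genes of the integrated stress response, had none. Of 6 release and recycling genes, ETF1 (the release factor eRF1, score 35) had one (16.7%). Of 9 mitochondrial translation factors, GFM1 (score 25) had one (11.1%). Both shares were near the 15.5% of all protein-coding genes. None of the 4 other cytoplasmic poly(A)-binding protein genes had an interval. Among cytosolic ribosomal protein genes 19 of 79 had an interval (24.1%, 16.0% to 34.5%), and among cytoplasmic aminoacyl-tRNA synthetase genes 12 of 20 (60.0%, 38.7% to 78.1%). The value of the translation factors, 34.2%, lay between them. Its Wilson interval overlapped both, and the differences were not tested.

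**Figure D4:**
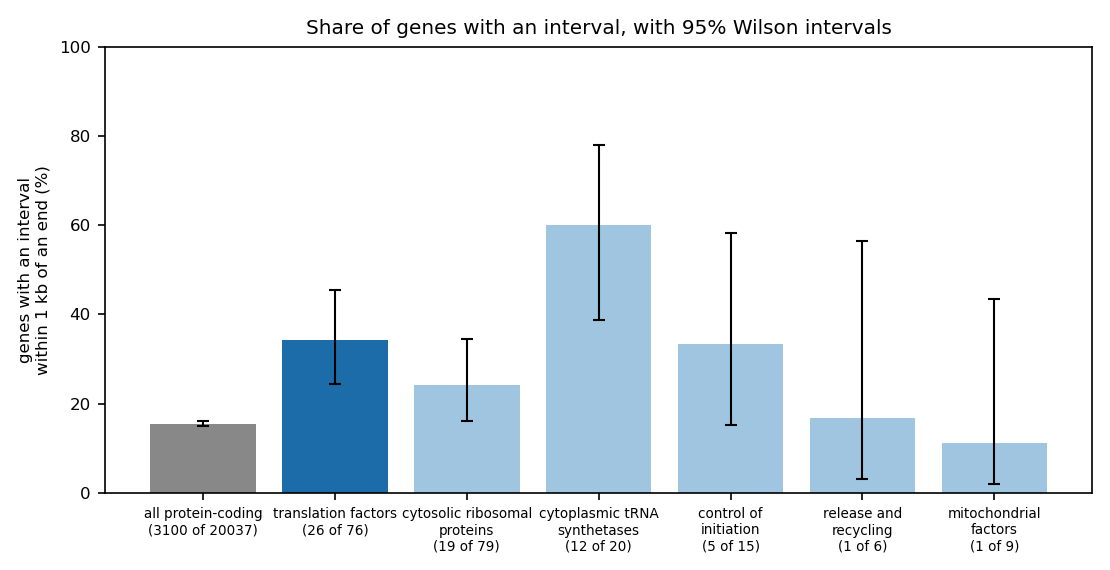
Percentage of genes with an interval within 1 kb of an end (vertical axis) for all protein-coding genes, the translation factor genes and 5 other lists of translation genes. Error bars are 95% Wilson intervals, which cover counting only. The translation factors (34.2%) were above all protein-coding genes (15.5%) and below the aminoacyl-tRNA synthetase genes (60.0%).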

How the data were processed

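HA-RFX6 chromatin of MHCC-97H cells was sequenced by the authors. Peaks were called with MACS2 2.1.0.2 per the submitters' processing notes, and the authors deposited 1 list without a header, giving position, a name and a whole-number score. The score is not defined and was used for ranking only. The notes name GRCh37, but GRCh38.p14 was used, since 60.8% of interval midpoints were within 1 kb of a protein-coding gene end there. The share on GRCh37 coordinates is not given, so the choice rests on this share alone. The aligner and the control of peak calling are not given in the sources used here. Of 6214 lines, 1 had its digit separators repaired, and lines with identical positions were counted once, leaving 5022 intervals. The 5019 on chromosomes 1 to 22 and X were used, with starts taken as 0-based in the list and printed 1-based, and each interval was given its highest score. Ranks give ties the highest place.

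Genes and start sites came from RefSeq tables, and start sites were found for 60 of 76 members (15843 of 20037 genes). A gene was counted when an interval midpoint lay within 1 kb of either end, or in the body. Every member with an interval was named. Members, roles and lists were chosen with earlier results of these data known. Ribosomal protein genes were taken by symbol, leaving out 9 like-named copies. 1 gene of the list on control of initiation is not reported here. The lookup was tested on simulated intervals. No test was run, since there was 1 library; the total depth is unknown. Wilson intervals are at 95%. Python 3.11.15, numpy 2.4.6, pandas 2.3.3, scipy 1.17.1 and matplotlib 3.10.9 were used. Alternatives were scores of at least 20 or 30, windows of 2 and 5 kb, any overlap, merging of intervals closer than 1 kb, start sites only, and the nearest gene end only.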

Additional observations from a re-analysis of the deposited data

How the results depend on the processing

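The number of members with an interval at a gene end was 26, and it stayed within 1.5 times this number in each alternative. With a score minimum of 20 it was 24, without EEF1A2 and EIF4G1, and with a minimum of 30 it was 19, without EIF2A, EIF2B5, EIF3H, EIF4E2 and EIF4G3 either, compared with 13.8% and 9.50% of all protein-coding genes. It was 27 within 2 kb (17.2% of all genes), 31 within 5 kb (19.8%), 26 with any overlap (15.9%) and 26 after merging (15.3%). With start sites only it was 18 of 60, compared with 15.4% of all genes. The like number for either end of these 60 members was 19. EEF1A2, EEF1AKMT3, EEF1D, EIF2AK1, EIF2S2, EIF3H and PABPC1 had no listed start and could not be counted in this setting. When each interval was given to its nearest gene end only, it was 21, compared with 13.4% of all genes, and EEF1AKMT3, EIF2A, EIF3H, EIF4E1B and EIF4E2 were lost to their neighbours. No paired analysis was possible because the series has a single ChIP library, and for the same reason no replicate could be left out. The unknown depth limits what a missing interval can show.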

Other observations

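The letters at the start sites gave a further pattern. Many mRNAs of the translation machinery begin with a C followed by a run of pyrimidines, the terminal oligopyrimidine motif through which mTOR controls their translation. A start of this kind (C followed by at least 4 pyrimidines at the outermost listed start) was found in 12 of 60 members, compared with 727 of 15843 protein-coding genes (4.59%). It was present in 3 of the 18 members with an interval at the start (EIF2A, EIF3M and EIF4B), compared with 141 of 2436 protein-coding genes with one (5.79%). Of the 42 members without an interval at the start, 9 had it, namely EEF1A1, EEF2, EIF2D, EIF2S3, EIF2S3B, EIF3D, EIF3F, EIF3K and EIF4A2. The GC content of the windows had a median of 66.0% in members with an interval at the start and 63.0% in those without. Over all protein-coding genes it was 68.7% where an interval was at the start and 62.7% in total. None of these differences was tested.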
